A study of Mus musculus with 48 samples.

Results

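The genes described here are 47 genes of skeletal muscle contraction, chosen by name, that code for the contractile filaments of the fibre, its Z disc, its calcium handling, its energy supply and its regulators. Each of the 47 was found once among the 46983 genes of both deposited expression tables, and all 47 were among the 21257 genes of the skin table that passed the filter on low values. RNA had been taken from whole skin of C57BL/6 mice in 3 domains, chin, ventral and dorsal, at 6 labelled stages of the hair cycle: early anagen, mid anagen and late anagen, in which hair grows, catagen, in which the follicle regresses, and a refractory and a competent telogen, in which it rests. These 18 groups held 43 libraries, 2 in 11 groups and 3 in 7 groups. The ear table held 7 libraries of C57BL/6 mice, 2 of telogen skin from the rostral side of the ear, 3 of the cartilage/muscle complex of the ear and 2 of dorsal competent telogen skin that the skin table also holds. No group carried a transgene or a treatment in the labels. The labels give neither the age, the sex nor the identity of the animals, so whether libraries of a group came from separate mice is not known.

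A skeletal muscle fibre is built of sarcomeres, in which thin filaments of actin slide along thick filaments of myosin. Calcium released from the sarcoplasmic reticulum binds to troponin on the thin filament and lets the filaments engage, and it is pumped back for the fibre to relax. In mice a thin sheet of striated muscle, the panniculus carnosus, lies under the dermis of the trunk, and the muscles of the face and of the ear lie under the skin there, so samples of whole skin can hold muscle fibres. Many sarcomere proteins exist as fast and slow forms from separate genes, and fibres of fast and slow muscles use mainly the matching set.

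Levels are given in FPKM, the fragments of a gene per kilobase of its transcript and scaled to the fragments of the library, a scale on which genes can be compared with each other. Differences are given as log2 differences of log2(FPKM + 1), which understate the change of genes with low levels. They were tested with limma, and a gene was called when its p-value, adjusted over all genes tested by the Benjamini-Hochberg method, was under 0.05. The depth, estimated from the smallest steps in the FPKM values, was 6.68 to 26.3 M (mega) fragments per skin library, with a median of 12.9 M, and 6.81 to 28.7 M fragments for the 5 libraries of the ear. In bulk tissue, fewer muscle fibres in a sample and less RNA per fibre cannot be told apart, and this holds for every difference given here.

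Some libraries stood apart from what their labels say. The 2 libraries labelled chin late anagen lay as close to the 2 labelled dorsal competent telogen as replicates lie to each other, at a median absolute log2 difference of 0.0924 to 0.108 in the 4 pairs, against 0.0746 to 0.391 in the 36 pairs within groups and at least 0.142 in the 1088 other pairs across groups. Between them 0 of the 47 members were called by limma, 0 had an unadjusted p under 0.05, and 0.00941% of all genes tested were called. Hoxb6, a trunk gene chosen after its values were seen, was at 6.16 to 7.13 FPKM in the chin late anagen libraries and at no more than 1.42 FPKM in all other chin libraries. Krt71, a keratin of the growing hair follicle, had means of 4381, 4025 and 8266 FPKM in chin, ventral and dorsal competent telogen, a stage without hair growth. At refractory telogen, also without hair growth, they were 2691, 6590 and 5879 FPKM, against 4631, 1779 and 3904 FPKM at early anagen. The stage labels thus do not order this gene, and this limit covers refractory telogen too. A ventral catagen library carries an ear location in 1 label, but its title and source name give ventral skin. It lay at 0.143 from its partner, above the median of 0.117 within groups and near the lowest of the other pairs across groups. Hoxb6 was at 8.43 to 9.34 FPKM in the 2 ventral catagen libraries and listed at 0 in ear skin. The ear skin libraries held Ddx3y, a gene of the Y chromosome, at 30.4 to 32.2 FPKM, and the other libraries of the ear table at no more than 0.03 FPKM, so ear skin and the other tissues came from mice of different sex, and tissue and sex cannot be told apart there. All groups are used here as labelled, and results that rest on the chin late anagen or dorsal competent telogen libraries are given with that limit.

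The defining markers of muscle were checked in the same way. Acta1, the actin of skeletal muscle, was at 55.6 FPKM or more in each of the 43 skin libraries. Of 6 genes used as markers of heart, Myh6, Nppa, Myl7 and Ryr2 stayed at or under 0.56 FPKM in every library of both tables, so these defining heart markers were near 0. The other 2 were not, with Tnnt2 at 2.54 to 9.37 FPKM over the skin libraries, 25.8 to 29.5 FPKM in ear skin and 2.24 to 3.39 FPKM in the ear complex, and Tnni3 at no more than 3.16 FPKM over the skin libraries and at 3.56 to 6.54 FPKM in the ear complex. The 6 summed to 2.99 to 11.9 FPKM in the skin table, 27.6 to 32.5 FPKM in ear skin and 6.75 to 9.46 FPKM in the complex. The 8 smooth muscle markers summed to 114 to 343 FPKM over the skin libraries, and the members to 432 FPKM in ventral catagen and 25853 FPKM in chin refractory telogen as group means. These 8 include Des, which is also on the list of other skeletal muscle genes used here. The smooth muscle sums given below are thus not free of skeletal muscle. The 4 macrophage markers summed to 11.4 to 73.7 FPKM over the skin libraries.

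The start of each gene shows which letters known to be bound by muscle regulators these genes carry. RefSeq promoter windows on GRCm38.p6 were matched by symbol for 32 members, which have 38 windows because some have several starts, and for 15 members no window was matched. Only the 250 bases before the start were searched, on both strands. The E-box CANNTG, bound by Myod1, Myog and other factors of its class, was in 86.8% of the members' windows and in 66.2% of all 32851 windows. Its form CAGCTG, which also counts as an E-box, was in 44.7% of the members' windows, those of 15 members, against 13.0% of all windows. The MCAT core CATTCC was in 18.4% of the members' windows against 12.6% of all windows. The MEF2 motif was in 15.8%, those of 6 members, against 2.92% of all windows. These shares describe letters in a window of this length, not binding.

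The 6 windows printed are those of genes on which the results turn: Acta1, Myl1, Atp2a1 and Ckm, which were among the highest members, and the fast and slow forms of troponin C, Tnnc2 and Tnnc1, which went apart between groups. Each runs 5′ to 3′ on the strand of its gene and ends at the base before the start, and capitals mark CAGCTG, the MCAT core (GGAATG where it reads on the other strand) and the MEF2 motif. The positions are chr8:123894776-123895025 for Acta1, chr1:66945057-66945306 for Myl1, chr7:126463074-126463323 for Atp2a1 and chr2:164779735-164779984 for Tnnc2, all on the minus strand, and chr7:19410844-19411093 for Ckm and chr14:31208062-31208311 for Tnnc1 on the plus strand.
Acta1: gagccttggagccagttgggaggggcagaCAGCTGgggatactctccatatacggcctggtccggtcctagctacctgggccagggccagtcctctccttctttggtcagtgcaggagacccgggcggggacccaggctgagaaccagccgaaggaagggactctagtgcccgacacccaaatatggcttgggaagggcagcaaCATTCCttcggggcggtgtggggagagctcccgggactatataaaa
Myl1: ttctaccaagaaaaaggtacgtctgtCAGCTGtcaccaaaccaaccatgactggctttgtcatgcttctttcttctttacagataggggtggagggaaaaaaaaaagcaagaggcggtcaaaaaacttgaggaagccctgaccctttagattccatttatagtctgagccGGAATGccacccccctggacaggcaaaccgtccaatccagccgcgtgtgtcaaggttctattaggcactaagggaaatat
Atp2a1: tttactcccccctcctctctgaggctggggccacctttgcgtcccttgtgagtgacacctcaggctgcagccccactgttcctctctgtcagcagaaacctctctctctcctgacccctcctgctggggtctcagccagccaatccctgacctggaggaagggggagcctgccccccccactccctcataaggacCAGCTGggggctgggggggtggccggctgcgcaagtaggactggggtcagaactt
Ckm: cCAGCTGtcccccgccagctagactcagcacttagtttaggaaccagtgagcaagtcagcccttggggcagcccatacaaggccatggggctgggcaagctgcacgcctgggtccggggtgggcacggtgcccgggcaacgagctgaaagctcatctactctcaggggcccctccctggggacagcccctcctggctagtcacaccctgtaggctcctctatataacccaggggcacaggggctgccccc
Tnnc2: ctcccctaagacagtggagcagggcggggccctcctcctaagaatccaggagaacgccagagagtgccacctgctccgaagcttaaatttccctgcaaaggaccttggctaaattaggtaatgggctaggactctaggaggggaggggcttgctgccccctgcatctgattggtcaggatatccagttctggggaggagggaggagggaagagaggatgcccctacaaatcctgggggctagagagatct
Tnnc1: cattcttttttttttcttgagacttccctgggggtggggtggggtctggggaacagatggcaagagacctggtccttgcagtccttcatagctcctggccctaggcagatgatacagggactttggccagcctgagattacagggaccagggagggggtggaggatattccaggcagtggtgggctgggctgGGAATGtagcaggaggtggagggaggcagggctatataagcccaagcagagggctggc
The Acta1 window held CAGCTG from 221 bases before the start and an MCAT core from 46 bases before it, and that of Myl1 held them from 224 and 80 bases before the start. The Atp2a1 window held CAGCTG from 55 bases and the Ckm window from 249 bases before the start. The window of Tnnc2 held none of the 3 motifs marked, and that of Tnnc1 held an MCAT core from 58 bases before the start.

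All 47 gene identifiers are in GENCODE vM21 on GRCm38, where chromosome 7 holds 10 members and chromosome 1 holds 7. Acta1 lies at chr8:123891769-123894751, Tnnc2 at chr2:164777161-164779967, Myl1 at chr1:66924295-66945404, Tnnc1 at chr14:31208312-31211729, Ckm at chr7:19404776-19422841 and Atp2a1 at chr7:126445858-126463108. By these positions the printed windows of Myl1 and Ckm lie inside the gene, most of the Tnnc2 window does, and that of Atp2a1 overlaps it. The RefSeq starts thus differ from the GENCODE gene starts there, and the motifs hold only for the windows before the RefSeq starts. Exons of 15 members share bases with a gene on the other strand, for example 592 bases of Tnnc2 with Ube2c, 763 of Atp2a1 with Rabep2 and 451 of Ckm with A930016O22Rik. The library protocol did not mark strand, so reads from those bases cannot be told apart. Acta1 has actin paralogs of almost the same sequence, and its reads could be split among them, which makes its absolute level uncertain.

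Over the skin, most members had their highest level in chin refractory telogen. Of the 47 members, 38 had their highest group mean in chin refractory telogen, 5 in dorsal catagen and 4 in dorsal early anagen. The lowest group mean was in ventral catagen for 19 members and in ventral competent telogen for 12. How many of all genes had their highest or lowest mean in these groups was not computed. Their summed FPKM was 3.15%, 1.98% and 2.98% of all FPKM in the 3 chin refractory telogen libraries, 1.21% and 1.17% in dorsal early anagen, 0.876% in both dorsal competent telogen libraries and 0.859% and 0.862% in chin late anagen. It was 0.0393% and 0.0430% in ventral catagen and 0.0441% to 0.0512% in ventral competent telogen. No other group overlapped chin refractory telogen in this share.

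**Figure D1:**
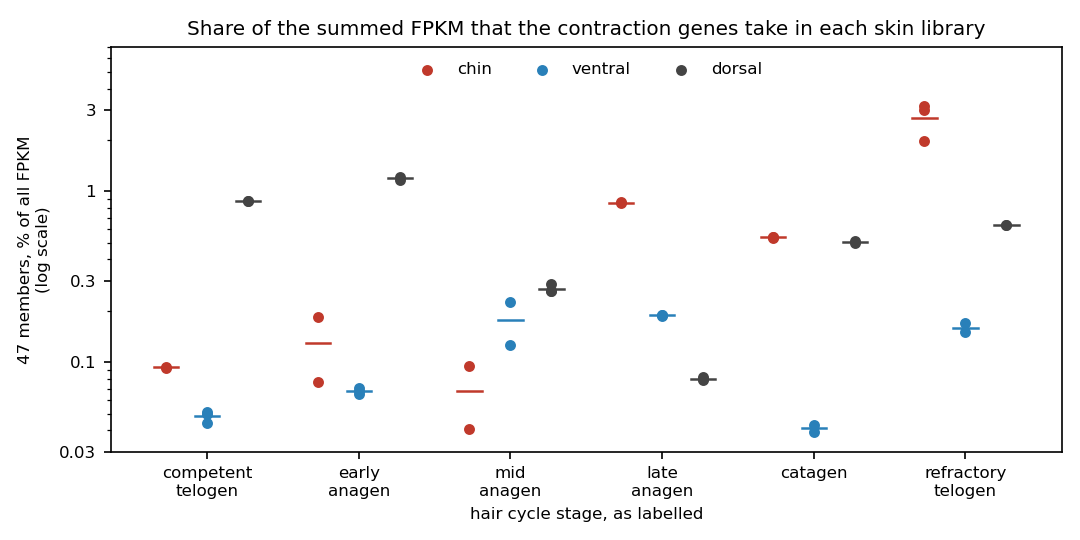
Share of the summed FPKM of each skin library that the 47 members take, in percent on a log axis, by stage and domain, with 1 point per library and a line at the group mean. The chin refractory telogen libraries lie at 1.98% to 3.15% and the ventral catagen libraries at 0.0393% and 0.0430%.

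Thin filament genes were led by Tnnc2, the fast troponin C that binds calcium, and by Acta1. Acta1 was at 5212, 3326 and 4808 FPKM in chin refractory telogen, at 1983 and 1793 FPKM in dorsal early anagen and at 1341 and 1335 FPKM in dorsal competent telogen. It was lowest in ventral competent telogen, at 79.2, 66.4 and 65.9 FPKM, close to ventral catagen at 81.1 and 70.6 FPKM, and these neighbours overlapped. The spread among replicates was mostly far smaller than this range, but not in chin early anagen, where Acta1 was at 91.0 and 260.0 FPKM, in chin mid anagen, at 169.9 and 55.6 FPKM, or in ventral mid anagen, at 265.9 and 519.0 FPKM. Tnnc2 was at 5930, 3174 and 5537 FPKM in chin refractory telogen and at 63.9, 73.3 and 62.2 FPKM in ventral competent telogen. Its second group was dorsal competent telogen, at 1930 and 1907 FPKM, followed by chin late anagen at 1737 and 1796 FPKM and dorsal catagen at 1613 and 1596 FPKM, and the libraries of these 3 groups did not overlap. Neb, the giant ruler of the thin filament, had group means from 3.05 to 266 FPKM, and the leiomodins Lmod2 and Lmod3, which nucleate actin, stayed at group means of 0.27 to 11.8 FPKM.

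Among thick filament genes the fast light chains were highest. Myl1, an essential light chain of fast myosin, was at 3411, 2406 and 3285 FPKM in chin refractory telogen, at 1627 and 1678 FPKM in dorsal early anagen and at 37.0 and 36.7 FPKM in ventral catagen. Mylpf, the fast regulatory light chain, was at 2413, 1667 and 2282 FPKM, at 1376 and 1379 FPKM and at 45.2 and 49.6 FPKM in the same groups. For both genes the order chin refractory telogen, dorsal early anagen and then chin late anagen and dorsal competent telogen was the same, and the last pair overlapped for Mylpf. Ttn, the molecular spring that spans from Z disc to M line, had group means from 4.75 to 277 FPKM.

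Among Z disc genes, Tcap, which anchors titin, and Myoz1, the fast fibre calsarcin, had the highest means over the skin libraries. Tcap was at 894, 611 and 799 FPKM in chin refractory telogen, at 320 and 256 FPKM in chin late anagen and at 256 and 257 FPKM in dorsal competent telogen. It was lowest in chin competent telogen, at 6.43 and 8.65 FPKM. Dorsal early anagen, second for many members, was only at 124 and 108 FPKM for Tcap, under dorsal catagen at 161 and 142 FPKM. Myoz1 was at 281, 197 and 282 FPKM in chin refractory telogen, at 104 and 95.4 FPKM in dorsal early anagen and at 88.9 and 90.3 FPKM in dorsal competent telogen, and was lowest in ventral catagen, at 2.46 and 4.35 FPKM. Both chin late anagen libraries lay under those of dorsal competent telogen for it. Actn3, the fast fibre alpha-actinin, was at 199.98, 148 and 178 FPKM in chin refractory telogen and at 1.98 and 2.58 FPKM in ventral catagen.

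Among calcium genes, Atp2a1, the fast fibre calcium pump of the sarcoplasmic reticulum, and Pvalb, a calcium buffer of fast fibres, were highest. Atp2a1 was at 1307, 764 and 1260 FPKM in chin refractory telogen and at 17.9, 15.99 and 15.4 FPKM in ventral competent telogen. In ventral refractory telogen its libraries were far apart, at 213 and 74.2 FPKM. Pvalb was at 796, 598 and 783 FPKM in chin refractory telogen and at 5.04 and 6.68 FPKM in ventral catagen. Ryr1, the calcium release channel, and Cacna1s, its voltage sensor, were also highest in chin refractory telogen, at lower levels, with group means from 0.23 to 6.53 FPKM and from 0.36 to 32.2 FPKM.

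Energy supply was led by Ckm, the muscle creatine kinase, at 2769, 1836 and 2437 FPKM in chin refractory telogen and at 29.9, 29.2 and 24.7 FPKM in ventral competent telogen. Regulators were low throughout. Mstn, the secreted inhibitor of muscle growth, was at 19.9, 15.1 and 21.7 FPKM in chin refractory telogen, at 12.9 and 11.3 FPKM in dorsal competent telogen and at 0 and 0.08 FPKM in ventral catagen. Myog, a factor of fibre formation, was highest in dorsal early anagen, at 5.47 and 5.29 FPKM, followed by chin refractory telogen at 4.64, 2.65 and 4.33 FPKM, and had group means of at most 1.49 FPKM in all other groups. Myod1, its relative in muscle precursors, had group means of at most 1.52 FPKM and reached 0.5 FPKM in 5 libraries, the fewest of all members.

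**Figure D2:**
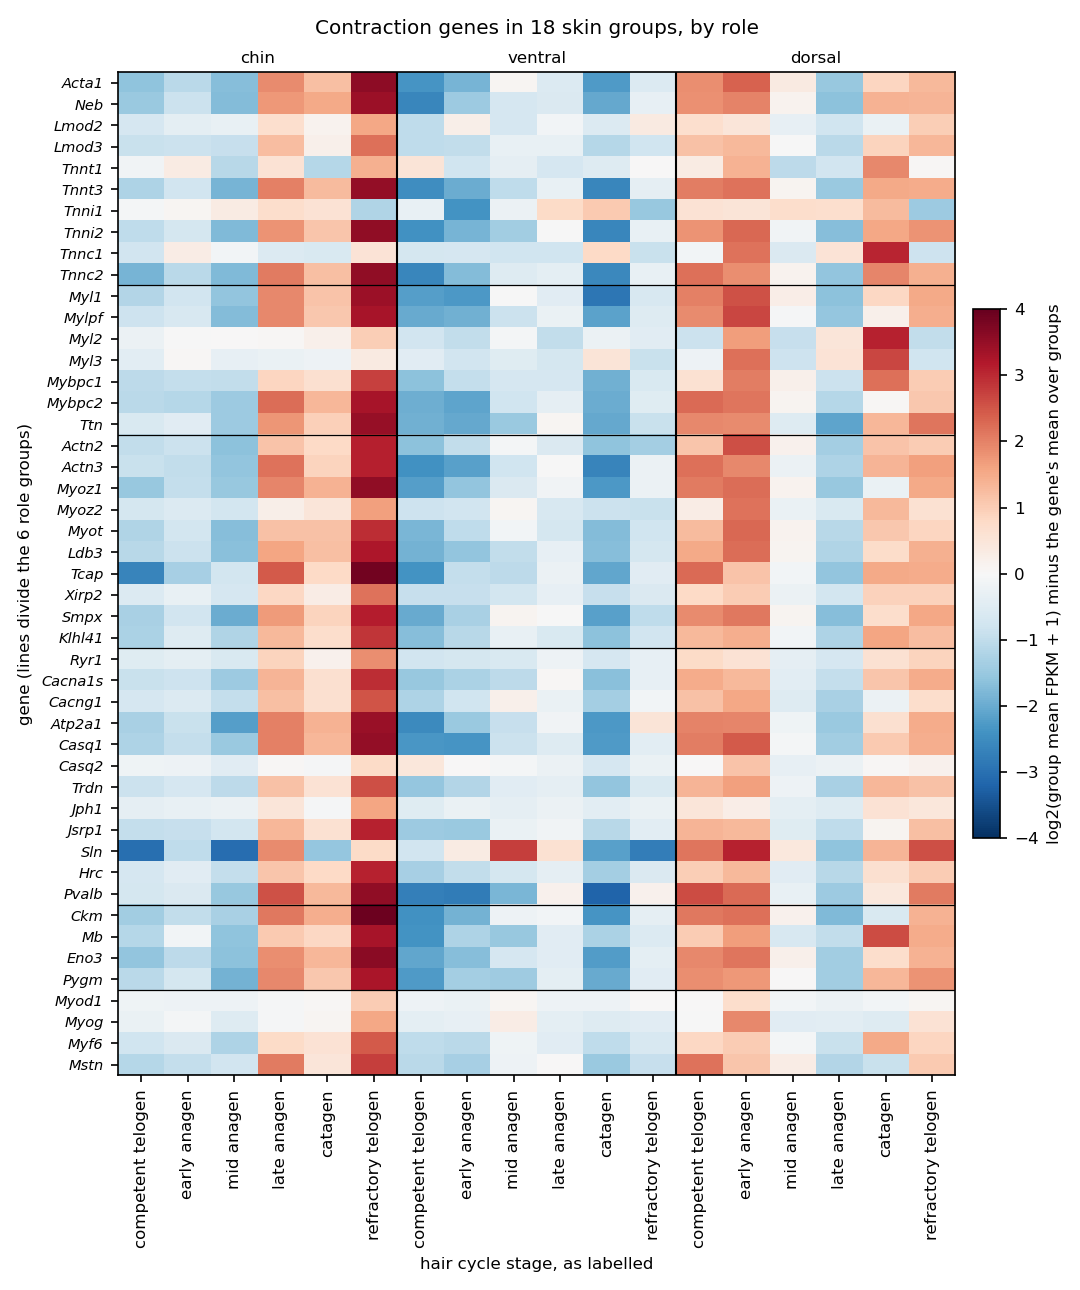
Log2(group mean FPKM + 1) of each of the 47 members minus the gene's own mean over the 18 skin groups, as colour, with genes in rows by role and groups in columns by domain and stage. Most members are highest in chin refractory telogen and lowest in ventral skin, while Tnnc1, Tnnt1, Tnni1, Myl2 and Myl3 are highest in dorsal catagen.

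At refractory telogen chin skin stood above both other domains for almost every member. Chin exceeded ventral skin for 46 of 47 members, where 24.7% of all genes tested were higher and 6.06% lower, with a median log2 difference of 3.51 over the members. It exceeded dorsal skin for 44 members and was lower for 1, with a median of 1.67, where 27.2% of all genes were higher and 7.61% lower. Ventral skin was lower than dorsal skin for 38 members, with a median of -1.76, where 8.10% were higher and 5.57% lower. Every role group took part: against dorsal skin, all 10 Z disc members, 7 of 7 thick filament members, 8 of 10 thin filament members, 11 of 12 calcium members, 4 of 4 energy members and 4 of 4 regulators were higher in the chin. The medians over all genes tested were 0.17 for chin against ventral skin and 0.14 for chin against dorsal skin, and the members' medians were above these shifts. Smooth muscle markers summed to 212 to 301 FPKM in chin, 132 to 136 FPKM in dorsal and 212 to 248 FPKM in ventral skin, and macrophage markers to 42.7 to 73.7 FPKM, 17.2 to 18.6 FPKM and 31.9 to 36.8 FPKM. In the same order the 5 fibroblast markers summed to 1270 to 2300 FPKM, 823 to 861 FPKM and 1557 to 1914 FPKM, the 6 adipocyte markers to 1847 to 2075 FPKM, 1106 to 1138 FPKM and 3250 to 3413 FPKM, and the 2 brown fat markers to 109 to 120 FPKM, 45.8 to 49.6 FPKM and 48.1 to 51.2 FPKM. The part of these cells in the result was not tested. The 2 ventral refractory telogen libraries were the farthest apart of the 36 pairs within groups, at a median absolute log2 difference of 0.391. With each library of the table left out in turn, these 2 included, 45 to 47 members were called in chin against ventral and 37 to 40 in ventral against dorsal skin.

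Acta1 was 2.28 higher in chin than in dorsal skin (SE 0.315, adjusted p = 1.354e-06), whose libraries held 923 and 875 FPKM, and 4.12 higher than in ventral skin, whose libraries held 233 and 268 FPKM (adjusted p = 3.619e-11). Under settings other than a library left out, these adjusted p-values from limma reached 0.001537 and 0.0003695. The 3 domains did not overlap for Acta1. Ckm differed most from dorsal skin, by 2.51 (SE 0.352, adjusted p = 1.71e-06), with 418 and 391 FPKM in the dorsal libraries. Mstn was 1.72 higher in chin than in dorsal skin (SE 0.205, adjusted p = 1.291e-07), and Myog 0.95 higher (SE 0.176, adjusted p = 8.725e-05), a call that was lost with a pseudocount of 0.1 (adjusted p = 0.06453). Sln went the other way. Sln codes for sarcolipin, a small inhibitor of the calcium pump, and was at 17.2, 11.1 and 21.0 FPKM in chin, at 58.2 and 61.2 FPKM in dorsal and at 0.67 and 0.34 FPKM in ventral skin. It fell by 1.84 from dorsal to chin skin (SE 0.501, adjusted p = 0.004458) and fell by 5.34 from dorsal to ventral skin (adjusted p = 3.834e-08). Tnni1, the slow troponin I, was not called in any of the 3 pairs.

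At competent telogen dorsal skin stood above the others instead, with the dorsal libraries being those that lay as close as replicates to chin late anagen. Chin skin was lower than dorsal skin for 40 members, with a median of -2.46, where 27.5% of all genes tested were higher and 9.29% lower. Ventral skin was lower than dorsal skin for 41 members and higher for 1, with a median of -3.03, where 38.0% were higher and 9.89% lower. The members thus went against the median over all genes, which was 0.19 and 0.25 in these pairs. Acta1 fell by 3.45 from dorsal to chin skin (SE 0.345, adjusted p = 5.942e-09) and by 4.23 from dorsal to ventral skin (adjusted p = 1.044e-11). Tnnc2 fell by 4.07 from dorsal to chin skin (SE 0.276, adjusted p = 2.304e-12), from 1930 and 1907 FPKM to 119 and 108 FPKM. Sln fell most, by 5.15 (SE 0.549, adjusted p = 2.008e-08), from 43.4 and 44.0 FPKM in dorsal skin to 0.34 and 0.18 FPKM in chin skin. All 10 genes of a fast fibre list were lower in chin than in dorsal skin, against 3 of 8 genes of a slow fibre list. The adipocyte markers summed to 2227 to 2228 FPKM in dorsal, 573 to 606 FPKM in chin and 1063 to 1581 FPKM in ventral skin, and the hair matrix markers to 9464 to 9526 FPKM, 4861 to 4939 FPKM and 4129 to 5060 FPKM, and their part was not tested.

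Chin and ventral competent telogen were closer to each other. Chin skin was higher for 20 members and lower for 2, with a median of 0.64, where 7.44% of all genes were higher and 15.5% lower. Without chin replicate 2 the count of members called fell from 22 to 9. Pvalb led, with 35.2 and 39.7 FPKM in chin and 7.63, 7.35 and 10.1 FPKM in ventral skin, a difference of 2.05 (SE 0.358, adjusted p = 0.0001069). Of the fast list 9 of 10 genes were higher in chin. The exceptions were Casq2, the calsequestrin of slow and cardiac fibres that stores calcium, which fell by 0.64 from ventral to chin skin (adjusted p = 0.005981), a call lost without chin replicate 2 (adjusted p = 0.09845), and Sln, which fell by 2.24 (SE 0.501, adjusted p = 0.001525), from 4.39, 6.44 and 4.23 FPKM in ventral skin. Casq2 was also 0.44 higher in ventral than in dorsal skin (adjusted p = 0.03127), a call that was lost under median-of-ratios scaling (0.09, adjusted p = 0.7036) and without ventral replicate 1 (adjusted p = 0.1132) or dorsal replicate 2 (adjusted p = 0.2799), and with no filter (adjusted p = 0.0537).

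At early anagen, where those libraries are not compared, dorsal skin again held the higher levels. Chin skin was lower than dorsal skin for all 47 members, with a median of -2.48, where 10.3% of all genes were higher and 16.7% lower. Ventral skin was lower than dorsal skin for 46 members, all but Lmod2, with a median of -2.95, where 14.0% were higher and 27.7% lower. Myl1 fell by 4.84 from dorsal to ventral skin (SE 0.329, adjusted p = 1.24e-12), from 1627 and 1678 FPKM to 53.5, 60.6 and 56.2 FPKM. Myog fell by 2.29 (SE 0.176, adjusted p = 1.502e-11), to 0.36, 0.06 and 0.53 FPKM in ventral skin, and by 2.04 from dorsal to chin skin (adjusted p = 3.77e-09). Actn2, the alpha-actinin of all fibre types, fell by 3.45 from dorsal to chin skin (SE 0.290, adjusted p = 3.582e-10). The slow genes fell here too, with 8 of 8 of the slow list lower in chin and in ventral than in dorsal skin. Myl2, the slow regulatory light chain, was at 6.31 and 4.45 FPKM in dorsal skin and listed at 0 in the 3 ventral libraries. Some markers of other cells had their highest sums of this stage in dorsal skin as well. Smooth muscle markers summed to 308 to 343 FPKM in dorsal, 135 to 214 FPKM in chin and 148 to 151 FPKM in ventral skin, the fibroblast markers to 3808 to 3835 FPKM, 1604 to 1900 FPKM and 1357 to 1435 FPKM, and macrophage markers to 31.7 to 37.0 FPKM, 17.7 to 17.96 FPKM and 16.6 to 18.8 FPKM. Their part in the result was not tested.

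Between chin and ventral early anagen the chin replicates decided the count. Chin skin was higher for 17 members and lower for 2, with a median of 0.55, where 19.8% of all genes were higher and 13.0% lower. The chin libraries held 0.0765% and 0.184% of their FPKM in members, and ventral libraries 0.0653% to 0.0706%. Without chin replicate 1, 30 members were called, and without chin replicate 2, 3 were called. Without chin replicate 2 the calls of Pvalb (adjusted p = 0.1581), Mylpf (adjusted p = 0.1528), Tnnc1 (adjusted p = 0.4922), Lmod2 (adjusted p = 0.3283) and Sln (adjusted p = 0.4084) were also lost, and that of Lmod2 was lost without ventral replicate 3 too (adjusted p = 0.1055). Lmod2 and Sln were the members lower in chin, by log2 differences of -0.63 and -1.54.

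At mid anagen dorsal skin held the higher levels for many members, and the replicates of chin and of ventral skin lay apart. Chin skin was lower than dorsal skin for 32 members, with a median of -1.09, where 7.18% of all genes were higher and 10.0% lower. Chin skin was lower than ventral skin for 22 members and higher for 1, with a median of -0.70, where 11.8% were higher and 10.3% lower. Ventral skin was lower than dorsal skin for 19 members and higher for 3, with a median of -0.35, where 12.1% were higher and 16.1% lower. Fits of the libraries of this stage alone called 15, 3 and 8 members in these pairs. Without chin replicate 2 the count for chin against ventral skin was 6, and without ventral replicate 2 it was 11. For ventral against dorsal skin it was 7 without ventral replicate 1. Smooth muscle markers summed to 114 to 119 FPKM in chin, 164 to 175 FPKM in ventral and 152 to 163 FPKM in dorsal mid anagen, and their part was not tested.

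Dorsal mid anagen libraries were close to each other, with Acta1 at 461, 480.3 and 480.7 FPKM, above both chin libraries. Acta1 fell by 2.27 from dorsal to chin skin (SE 0.315, adjusted p = 8.283e-06). Ckm fell by 1.70 (SE 0.352, adjusted p = 0.001159), a call lost without chin replicate 2 (adjusted p = 0.1411). Sln was listed at 0 and 0.44 FPKM in chin, at 12.6, 11.52 and 13.9 FPKM in dorsal and at 11.2 and 125 FPKM in ventral skin, so its replicates in ventral skin were far apart. Its difference of ventral against dorsal skin, 1.53 (adjusted p = 0.02209), became -0.16 without ventral replicate 2 (adjusted p = 0.8543) and its call was lost without dorsal replicate 2 (adjusted p = 0.05538). Cacng1, a subunit of the muscle calcium channel, was 0.69 higher in ventral than in dorsal skin (adjusted p = 0.0406), a call lost without either ventral library (adjusted p = 0.2026 and 0.1039) and without dorsal replicate 1 (adjusted p = 0.1243) or 3 (adjusted p = 0.0665). That call was also lost with a replicate block (adjusted p = 0.06279), with TPM rescaling (adjusted p = 0.05178), with no filter (adjusted p = 0.06919), with a pseudocount of 0.1 (adjusted p = 0.09678) and without the chin late anagen and dorsal competent telogen libraries (adjusted p = 0.0519). Myog was 0.75 higher in ventral than in dorsal skin (SE 0.176, adjusted p = 0.001732), at 0.91 and 1.2 FPKM against 0.14, 0.24 and 0.27 FPKM. Tnni1 was 0.57 higher in chin than in ventral skin (adjusted p = 0.01089), a call lost without chin replicate 2 (adjusted p = 0.1006) or ventral replicate 1 (adjusted p = 0.2442). In the fit of this stage alone the calls of Ckm (adjusted p = 0.1125), Cacng1 (adjusted p = 0.1223), Tnni1 (adjusted p = 0.1084) and the ventral difference of Sln (adjusted p = 0.2499) were lost, the last also with a pseudocount of 0.1 (adjusted p = 0.06251).

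At late anagen chin skin held the higher levels, and this rests on the chin libraries that lay as close as replicates to dorsal competent telogen. Chin skin was higher than ventral skin for 39 members, with a median of 1.68, where 5.99% of all genes were higher and 9.62% lower. It was higher than dorsal skin for 40 members and lower for 2, with a median of 2.498, where 5.78% were higher and 13.7% lower. Acta1 was 3.40 higher in chin than in dorsal skin (SE 0.315, adjusted p = 3.997e-09), at 1407 and 1307 FPKM against 134, 125 and 124 FPKM. Tcap was 4.02 higher than in dorsal skin (SE 0.290, adjusted p = 3.584e-11), where it was at 17.1, 16.4 and 16.6 FPKM. The members lower in chin were Tnnc1, the slow and cardiac troponin C, which fell by 1.08 from dorsal to chin skin (adjusted p = 0.001931), and Myl3, the slow essential light chain, which fell by 0.86 (adjusted p = 0.04728). The call of Myl3 was lost with many of the libraries left out in turn, for example without dorsal replicate 2 (adjusted p = 0.1673) or chin replicate 2 (adjusted p = 0.4914), and with no filter (adjusted p = 0.08615), a pseudocount of 0.1 (adjusted p = 0.1135) or the median of ratios (adjusted p = 0.06658). The adipocyte markers summed to 2087 to 2103 FPKM in chin, 1334 to 1469 FPKM in ventral and 1416 to 1515 FPKM in dorsal late anagen, and macrophage markers to 37.4 to 38.9 FPKM, 11.4 to 15.8 FPKM and 16.3 to 19.6 FPKM, and their part was not tested.

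Ventral against dorsal late anagen does not use those libraries. Ventral skin was higher for 30 members and lower for 3, with a median of 0.87, where 1.47% of all genes were higher and 1.67% lower. Without dorsal replicate 2, 21 members were called, and without the chin late anagen and dorsal competent telogen libraries in the fit 25 were higher and 3 lower. Of the fast list 9 of 10 genes were higher in ventral skin. Atp2a1 was 1.36 higher (SE 0.267, adjusted p = 0.002737), at 87.6, 96.0 and 90.3 FPKM against 36.8, 36.6 and 31.9 FPKM. Sln was 2.20 higher (SE 0.448, adjusted p = 0.0038), at 18.7, 12.1 and 13.0 FPKM against 2.80, 2.29 and 1.97 FPKM. The members lower in ventral skin were all slow forms. Tnnc1 was at 0, 0.28 and 0.37 FPKM in ventral and at 1.99, 2.76 and 1.44 FPKM in dorsal skin (adjusted p = 0.0003282). Myl2 was listed at 0 in the 3 ventral libraries and at 1.53, 1.77 and 2.03 FPKM in the dorsal ones (adjusted p = 0.01984), a call that was lost when any library of either group was left out (adjusted p = 0.05342 to 0.08906). Myl3 was lower as well (-1.26, adjusted p = 0.007767), and its call was lost without dorsal replicate 2 (adjusted p = 0.06435).

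Catagen was the stage at which chin and dorsal skin held like amounts of the members but not the same ones. The summed share was 0.539%, 0.541% and 0.535% in chin and 0.510% and 0.5002% in dorsal skin. Chin skin was higher for 9 members and lower for 18, with a median of -0.28, where 20.0% of all genes were higher and 21.3% lower, so the share of members called higher was near that of all genes and the share called lower was above it. Ventral skin held far less, with 43 members lower than in dorsal skin at a median of -2.78, where 16.4% were higher and 19.0% lower. Against ventral skin, chin was higher for 37 members and lower for 2, with a median of 2.38, where 2.96% were higher and 2.23% lower. Each library was left out in turn, the ventral one with an ear location included. This gave 36 to 42 members called in chin against ventral and 42 to 43 in ventral against dorsal catagen. The hair matrix markers summed to 12504 to 13488 FPKM in chin, 3887 to 3913 FPKM in dorsal and 10661 to 11543 FPKM in ventral catagen, and the fibroblast markers to 577 to 607 FPKM, 1081 to 1099 FPKM and 784 to 799 FPKM, and their part was not tested.

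Slow forms were lower in chin than in dorsal catagen, with 7 of 8 of the slow list called, the exception being Casq2. Tnnc1 was at 0.27, 0.54 and 0.33 FPKM in chin and at 14.7 and 18.2 FPKM in dorsal skin, a fall of 3.65 (SE 0.243, adjusted p = 1.034e-12). Tnnt1, the slow troponin T, was at 0.95, 0.84 and 0.94 FPKM against 14.4 and 15.7 FPKM (adjusted p = 5.579e-09). Myl2 was at 1.26, 0.80 and 1.77 FPKM against 17.6 and 14.0 FPKM (adjusted p = 1.123e-06). The groups did not overlap for any of these genes. Myl3, Mybpc1, the slow myosin-binding protein C, and Mb, the oxygen store myoglobin, fell by 2.85, 1.55 and 1.78, and Mb was at 25.8, 30.4 and 34.2 FPKM in chin against 111 and 99.3 FPKM in dorsal skin. Myoz2, the slow fibre calsarcin, was lower by a smaller step (-0.80, adjusted p = 0.0117), lost without dorsal replicate 2 (adjusted p = 0.1843) or with a pseudocount of 0.1 (adjusted p = 0.06753).

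Fast forms went both ways, with 4 of 10 of the fast list higher and 1 lower. Of that list, Myoz1 was 1.67 higher in chin (SE 0.318, adjusted p = 8.576e-05), Mybpc2, the fast myosin-binding protein C, 1.28 higher (SE 0.277, adjusted p = 0.0003976) and Mylpf 0.87 higher (SE 0.251, adjusted p = 0.006023). Atp2a1 was 0.75 higher (SE 0.299, adjusted p = 0.04367), a call lost without any 1 of the 5 chin and dorsal catagen libraries (adjusted p = 0.05862 to 0.1617), with a replicate block (adjusted p = 0.05592), with no filter (adjusted p = 0.07002) and without the chin late anagen and dorsal competent telogen libraries (adjusted p = 0.05408). Ckm, an energy gene outside the list, was at 442, 402 and 427 FPKM in chin and at 103 and 98.2 FPKM in dorsal catagen, a difference of 2.06 (SE 0.352, adjusted p = 2.071e-05). Mstn was at 3.40, 2.83 and 2.88 FPKM in chin and at 0.50 and 0.64 FPKM in dorsal skin (adjusted p = 3.332e-06). Tnnc2 was the fast gene that fell, by 0.76 (SE 0.252, adjusted p = 0.01543), and this call was lost without dorsal replicate 1 (adjusted p = 0.07619) or 2 (adjusted p = 0.07037). Acta1, at 854, 843 and 872 FPKM in chin and 675 and 659 FPKM in dorsal skin, was not called. Against ventral skin the exceptions were Tnnc1, which fell by 1.42 from ventral to chin skin (SE 0.243, adjusted p = 0.000271), and Tnni1, which fell by 0.49 (adjusted p = 0.04938), which lay just under the threshold. The call of Tnni1 was lost without any 1 of the 5 chin and ventral catagen libraries (adjusted p = 0.07146 to 0.2304) and without most of the other libraries, with a replicate block (adjusted p = 0.05832), with TPM rescaling (adjusted p = 0.1543), with the median of ratios (adjusted p = 0.05417), with no filter (adjusted p = 0.05252), with no variance trend (adjusted p = 0.05305), with a pseudocount of 0.1 (adjusted p = 0.08212) and without the chin late anagen and dorsal competent telogen libraries (adjusted p = 0.0673).

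**Figure D3:**
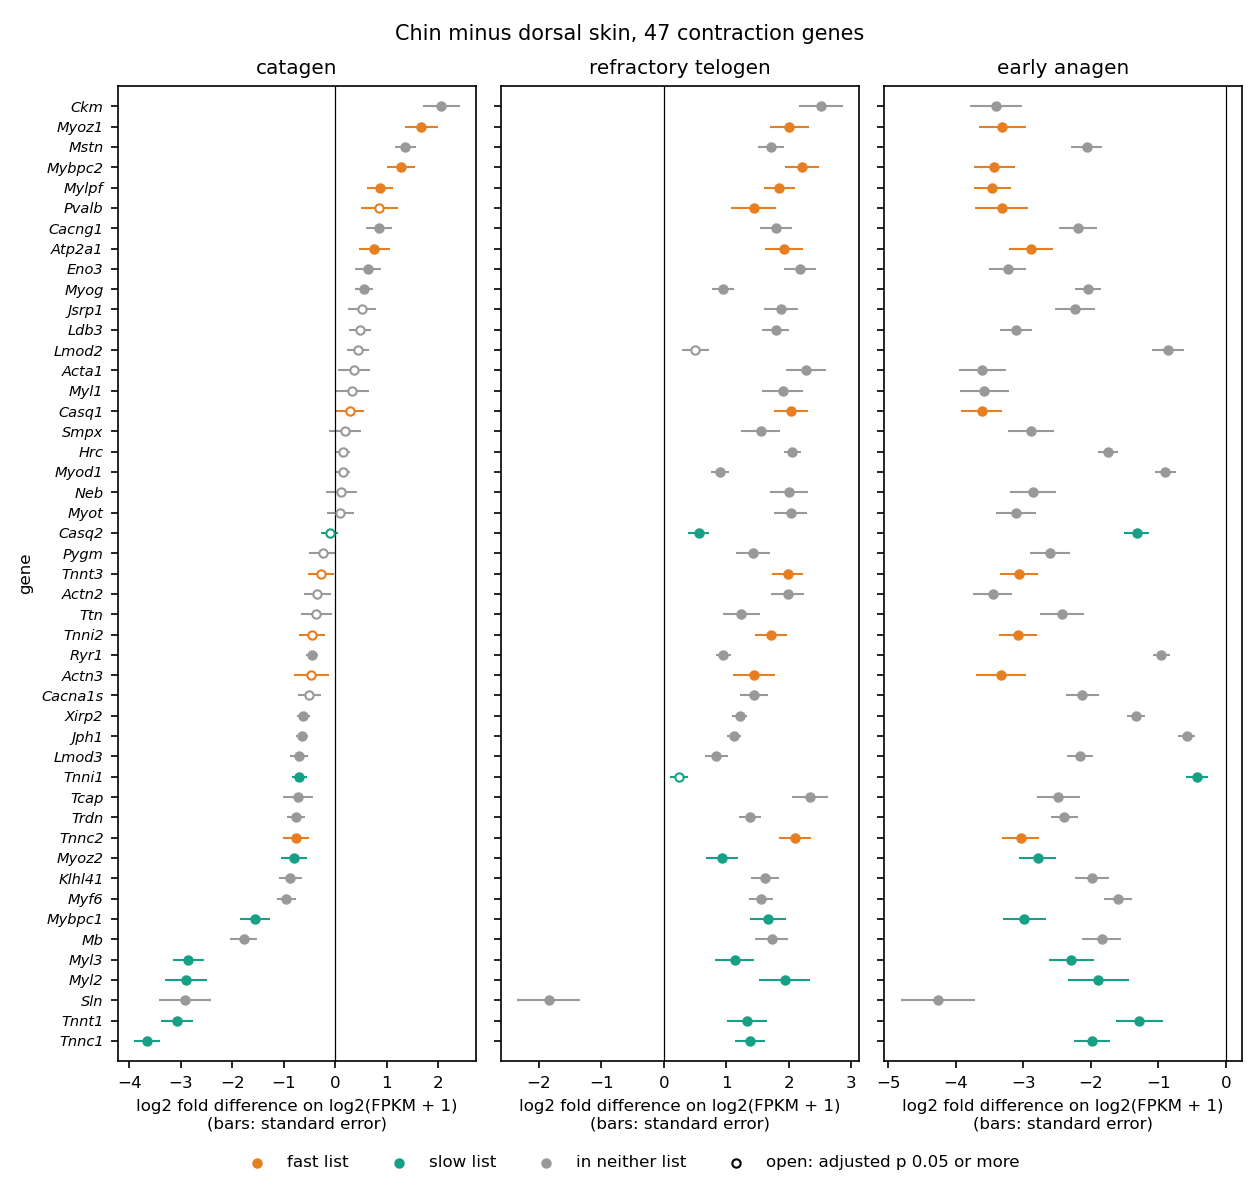
Log2 difference of chin minus dorsal skin for each of the 47 members at catagen, refractory telogen and early anagen, with bars of 1 standard error from limma, filled points for members called and colours for the fast and slow lists. Members are in order of the catagen difference, which runs from Tnnc1 (-3.65) to Ckm (2.06), while nearly all are higher in chin at refractory telogen and all are lower at early anagen.

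Within each domain nearly every member changed over the 6 stages, which was also true of most genes. In dorsal skin 47 members were called over the stages, where 68.5% of all genes tested were called. In chin skin 45 were called, all but Myl2 and Myl3, where 66.2% were called, and in ventral skin 44 were called, all but Myl2, Jph1 and Myod1, where 70.2% were called. The change over the stages differed among the domains for all 47 members, with adjusted p from 1.895e-17 to 2.021e-06, where 73.3% of all genes were called. The count remained 47 without the chin late anagen and dorsal competent telogen libraries. The domain with the highest mean was dorsal at competent telogen for 44 members and at early anagen for 47, chin at late anagen for 43 and at refractory telogen for 46, and at catagen dorsal for 26 and chin for 21. The dorsal competent telogen and chin late anagen libraries lay as close to each other as replicates, which limits the results of those stages.

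The shares of slow forms were compared in 5 pairs of fast and slow genes. A share is the slow gene's FPKM over the sum of both genes, in percent, and is given as a description. For troponin C, Tnnc1 made up 3.79 ± 0.222% (SD, n = 2) in ventral catagen, 1.49 ± 0.491% (n = 3) in dorsal late anagen, 1.01 ± 0.159% (n = 2) in dorsal catagen and 0.016 ± 0.0025% (n = 2) in dorsal refractory telogen. For troponin I, Tnni1 made up 57.5 ± 0.768% (n = 2) in ventral catagen and 0.341 ± 0.151% (n = 3) in chin refractory telogen. For troponin T, Tnnt1 was highest in ventral competent telogen, at 15.02 ± 2.18% (n = 3), and lowest in chin catagen, at 0.237 ± 0.0425% (n = 3). For myosin-binding protein C, Mybpc1 made up 88.2 ± 0.253% (n = 2) in dorsal catagen, against 47.6 ± 2.74% (n = 3) in chin catagen and 30.5 ± 0.586% (n = 2) in dorsal competent telogen. In ventral early anagen this share was as high, at 89.3 ± 6.73% (n = 3). For calsequestrin, Casq2 made up 51.0 ± 4.51% (n = 3) in ventral competent telogen and 1.84 ± 0.229% (n = 3) in chin refractory telogen. High slow shares thus came in groups with low members' levels, such as ventral catagen, and for Tnnc1 and Mybpc1 also in dorsal catagen, where the slow genes themselves were high.

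**Figure D4:**
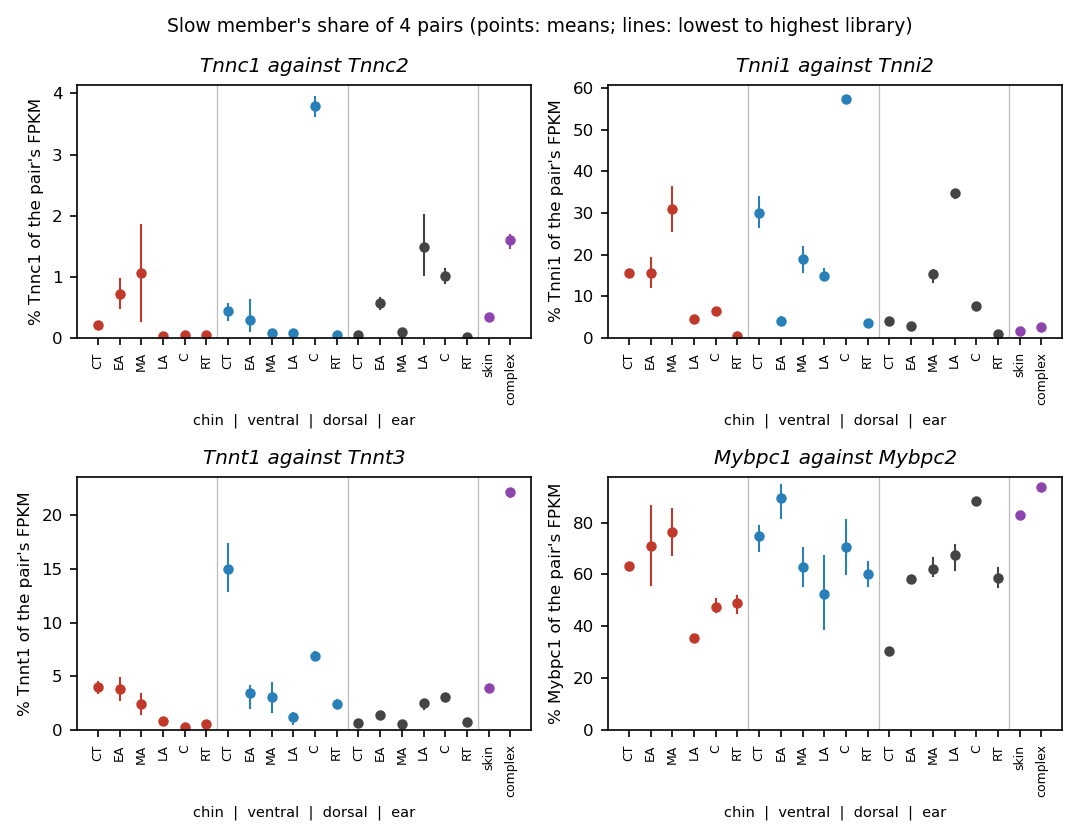
Share of the slow form in 4 pairs of fast and slow genes, in percent of the FPKM of both, by domain, ear tissue and stage (CT competent telogen, EA early, MA mid and LA late anagen, C catagen, RT refractory telogen) with points for group means and lines from the lowest to the highest library. Tnni1 is at 57.5% in ventral catagen. Mybpc1 is at 88.2% in dorsal catagen, 89.3% in ventral early anagen and 93.6% in the ear complex.

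Most members shared 1 pattern over the 43 libraries, and 4 genes of the slow list shared it least. The correlation of log2 levels with the mean of the other members was at least 0.9 for 34 members and under 0.5 for 4, Tnni1 (0.02), Tnnc1 (0.34), Myl3 (0.36) and Myl2 (0.44). The other genes of the slow list were at 0.58 for Tnnt1, 0.59 for Casq2, 0.89 for Myoz2 and 0.94 for Mybpc1. Libraries share depth and tissue makeup, so these are descriptions. Tnni1 instead moved with the hair matrix markers (r = 0.80) and against the keratinocyte markers (r = -0.79), and Casq2 with the smooth muscle (r = 0.77) and macrophage markers (r = 0.70), and their part in these genes' levels was not tested. The smooth muscle markers include Des, which is also on the list of other skeletal muscle genes. Myl2, Myl3 and Tnnc1 were at or under 3 FPKM in all groups but dorsal early anagen and dorsal catagen as group means, where they were at 5.38 to 16.4 FPKM.

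Of the 21210 other genes tested, 99, or 0.467%, had a correlation of at least 0.9 with the mean of the members, and 45 of at least 0.95. Among the highest were Asb5 (0.99), Smtnl1 (0.99), Cox6a2 (0.98), Nrap (0.98), Pgam2 (0.98), Rpl3l (0.98), Myom2 (0.98), Cav3 (0.98) and Asb11 (0.97). Pgam2, the muscle phosphoglycerate mutase of glycolysis, had group means from 9.80 FPKM in ventral catagen to 820 FPKM in chin refractory telogen.

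Other skeletal muscle genes, a list of 45 of which 40 were tested in the skin, mostly had the direction of the members and smaller medians. At refractory telogen 38 of 40 were higher in chin than in ventral skin and 34 higher than in dorsal skin, with medians of 2.54 and 1.35, and 28 were lower in ventral than in dorsal skin. At competent telogen 33 of 40 were lower in chin than in dorsal skin and 2 higher, with a median of -1.41. That result rests on dorsal libraries that lay as close as replicates to chin late anagen. At early anagen 36 were lower in chin than in dorsal skin, with a median of -1.56. At catagen 16 were above their dorsal level in chin and 4 below it, with a median of 0.20, where the members' median was -0.28. Cox8b, a subunit of cytochrome oxidase of muscle and brown fat, was among the 2 highest of the list, with means of 531 FPKM in chin and 117 FPKM in dorsal refractory telogen.

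Some genes of that list went against the rest. Dmd, dystrophin, was 0.90 higher in chin than in dorsal competent telogen (adjusted p = 4.141e-06) and 0.59 higher in ventral than in dorsal skin (adjusted p = 0.0001762), and Pax3, a factor of muscle precursors and of pigment cells, was 0.53 higher in chin than in dorsal skin (adjusted p = 0.001583). Fbp2, a muscle fructose bisphosphatase, fell by 1.66 from ventral to chin early anagen (adjusted p = 6.463e-09), and Fbxo32, a ubiquitin ligase of muscle wasting, fell by 0.68 (adjusted p = 7.225e-08), and both were higher in ventral than in dorsal early anagen, by 0.43 (adjusted p = 0.03987) and 0.64 (adjusted p = 1.717e-07). Phkg1, a phosphorylase kinase subunit, was 1.00 higher in chin than in ventral mid anagen (adjusted p = 0.02468). At late anagen Fbxo32 was lower in chin than in ventral skin (-0.28, adjusted p = 0.01361) and Pax3 lower than in dorsal skin (-0.36, adjusted p = 0.03048). The differences at competent telogen and late anagen rest on the dorsal competent telogen and chin late anagen libraries, which lay as close as replicates. Several calls of genes named in this paragraph depended on 1 library or setting. That of Dmd in ventral skin was lost under median-of-ratios scaling (0.18, adjusted p = 0.1934). The ventral call of Fbp2 was lost with a replicate block (adjusted p = 0.06238) and without either dorsal library (adjusted p = 0.1913 and 0.08928), that of Phkg1 without chin replicate 2 (adjusted p = 0.3577) or ventral replicate 2 (adjusted p = 0.2908), that of Fbxo32 at late anagen without chin replicate 2 (adjusted p = 0.2238), and that of Pax3 at late anagen without either chin library (adjusted p = 0.1984 and 0.09043).

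In the ear the cartilage/muscle complex was by far the richer tissue. The members made up 3.69%, 4.38% and 3.58% of the FPKM of its libraries and 0.242% and 0.237% of those of ear skin. All 47 were higher in the complex than in ear skin, with a median of 3.82, where 28.0% of all genes tested were higher and 38.5% lower. Against dorsal skin labelled competent telogen 43 were higher and 4 lower, with a median of 2.22, where 42.8% were higher and 28.3% lower. Ear skin was lower than dorsal skin for 39 members and higher for 2, with a median of -1.62, where 44.7% were higher and 14.6% lower. Over all genes the medians were -0.11, 0.24 and 0.33 in these pairs. The complex held cartilage markers at a sum of 46772 to 48913 FPKM and keratinocyte markers at a sum of 7.07 to 7.88 FPKM, and ear skin held the 6 keratinocyte markers at 8489 to 9048 FPKM, and the 5 fibroblast markers at 7718 to 8042 FPKM, against 4106 to 4220 FPKM in the complex. Smooth muscle markers summed to 399 to 475 FPKM in the complex and 79.4 to 83.1 FPKM in ear skin, and adipocyte markers to 1535 to 1634 FPKM in the complex, 604 to 612 FPKM in ear skin and 2227 to 2228 FPKM in dorsal skin. The hair matrix markers summed to no more than 8.63 FPKM, to 78.7 to 80.6 FPKM and to 9464 to 9526 FPKM in these tissues. The part of such cells in the result was not tested.

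Fibre forms set the complex apart from skin. Acta1 was at 5208, 5980 and 4877 FPKM in the complex, 312 and 298 FPKM in ear skin and 1341 and 1335 FPKM in dorsal skin. It was 4.13 higher in the complex than in ear skin (SE 0.0916, adjusted p = 2.642e-07) and 1.99 higher than in dorsal skin (adjusted p = 5.477e-06). Against ear skin the slow list differed by 1.74 (Casq2) to 6.69 (Myl2), with a median of 5.25. The fast list differed by 2.10 to 5.25, with a median of 3.23, so the 2 lists overlapped. Myl2 was at 241, 249 and 230 FPKM in the complex, 1.35 and 1.31 FPKM in ear skin and 0 and 0.17 FPKM in dorsal skin, a difference of 6.69 against ear skin (SE 0.0862, adjusted p = 3.214e-08) and 7.80 against dorsal skin (adjusted p = 1.123e-08). Tnnt1 was at 615, 653 and 647 FPKM in the complex and at 6.13 and 6.11 FPKM in ear skin (adjusted p = 1.031e-08). Mb, which is on neither list, was at 2946, 3326 and 2846 FPKM, against 37.8 and 30.9 FPKM in ear skin and 34.6 and 33.5 FPKM in dorsal skin. No library of the complex overlapped the other tissues for these genes.

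Over the lists, the slow genes were a median of 5.09 higher in the complex than in dorsal skin, with 8 of 8 called, and the fast genes a median of 0.96 higher, with 7 higher and 3 lower. Tnni1 was at 108, 129 and 101 FPKM in the complex, 1.85 and 2.06 FPKM in ear skin and 17.6 and 17.7 FPKM in dorsal skin. Sln, high in few skin groups, was at 859, 948 and 837 FPKM in the complex against 15.2 and 16.2 FPKM in ear skin and 43.4 and 44.0 FPKM in dorsal skin. The slow share was 22.2 ± 0.398% (SD, n = 3) for Tnnt1 in the complex, 3.88 ± 0.264% (n = 2) in ear skin and 0.632 ± 0.0308% (n = 2) in dorsal skin, and for Mybpc1 93.6 ± 0.138%, 82.9 ± 0.290% and 30.5 ± 0.586%. For Tnni1 it was 2.45 ± 0.138% in the complex, 1.66 ± 0.257% in ear skin and 4.09 ± 0.0915% in dorsal skin. This share was thus lower in the complex than in dorsal skin. Tnni2, the fast form, was at 4286, 4888 and 4306 FPKM in the complex. In the same order the share was 4.80 ± 0.388%, 4.31 ± 0.173% and 2.73 ± 0.514% for Casq2. For Tnnc1 it was 1.59 ± 0.108%, 0.338 ± 0.0477% and 0.0504 ± 0.0221%.

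The members lower in the complex than in dorsal skin were 3 fast genes and Mstn. Actn3 was at 52.2, 60.3 and 50.2 FPKM against 89.9 and 96.3 FPKM (-0.77, SE 0.0997, adjusted p = 0.0006029). Mybpc2 was at 16.6, 20.1 and 17.1 FPKM against 30.1 and 29.5 FPKM (-0.71, adjusted p = 0.0007312). Pvalb was at 283, 260.2 and 281 FPKM against 381 and 378 FPKM (-0.46, adjusted p = 0.0005517). Mstn was at 4.37, 3.40 and 4.80 FPKM against 12.9 and 11.3 FPKM (-1.34, SE 0.136, adjusted p = 0.0001927). These differences depend on the dorsal group. With dorsal refractory telogen in its place, an alternative chosen after seeing the data, 44 members were higher in the complex, Mybpc2 was 0.50 higher (adjusted p = 0.004349), Pvalb differed by 0.05 (adjusted p = 0.4602), and the calls of Actn3 (-0.22, adjusted p = 0.08675) and Mstn (-0.22, adjusted p = 0.1855) were lost. For the count of 44 the share of all genes called was not recorded.

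Ear skin was lower than dorsal skin in every gene of the fast list, while the slow list went both ways. All 10 fast genes were lower, with a median of -2.16, while of the slow genes 2 were higher and 2 lower, with a median of 0.02. These tissues also differ in sex, and the dorsal libraries are those that lay as close as replicates to chin late anagen. Mybpc2 fell by 3.20 (SE 0.104, adjusted p = 3.49e-06), from 30.1 and 29.5 FPKM in dorsal skin to 2.26 and 2.46 FPKM in ear skin, and Tnni1 fell by 2.66 (SE 0.1195, adjusted p = 1.246e-05). Myl2 was 1.11 higher in ear skin (SE 0.0944, adjusted p = 0.0001629). Tnnt1 was 0.43 higher (SE 0.0667, adjusted p = 0.002035), at 6.13 and 6.11 FPKM against 4.52 and 4.06 FPKM, and this call was lost under median-of-ratios scaling (0.02, adjusted p = 0.8472). With dorsal refractory telogen as the dorsal group, 41 members were lower in ear skin and 4 higher. The share of all genes called in that fit was not recorded, so these counts have no background beside them.

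**Figure D5:**
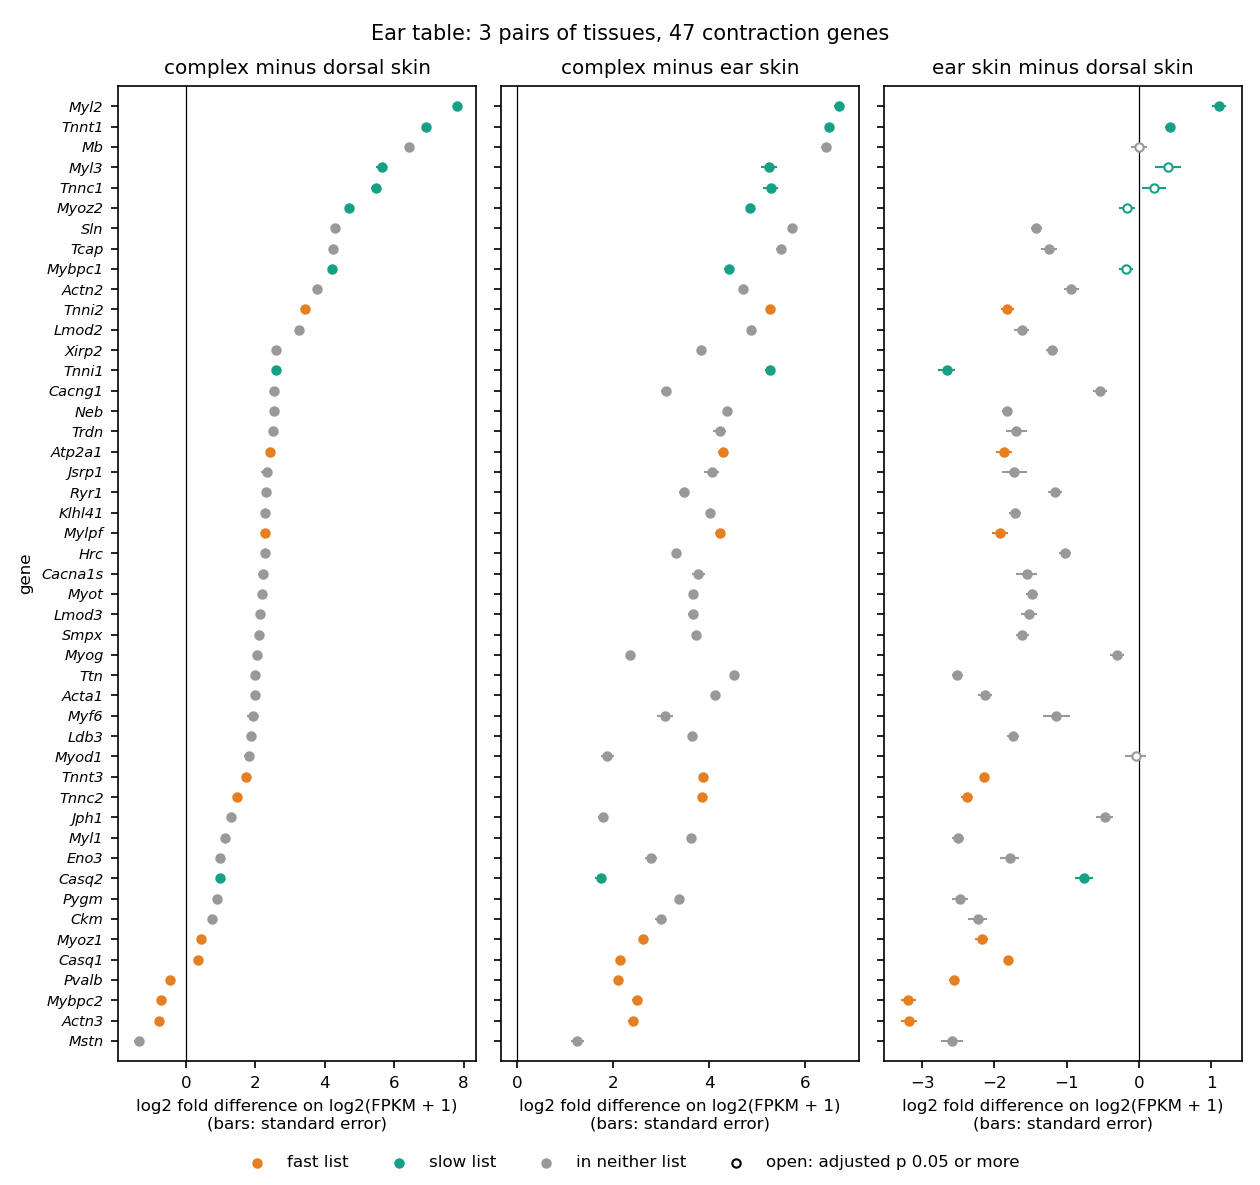
Log2 difference of each of the 47 members between the ear complex and dorsal skin, the complex and ear skin, and ear skin and dorsal skin, with bars of 1 standard error, filled points for members called and colours for the fast and slow lists. All 47 members are higher in the complex than in ear skin, and 43 are higher than in dorsal skin, with Myl2 at 7.80.

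The other muscle genes gave a like picture in the ear, with 39 of 42 tested higher and 2 lower in the complex than in ear skin, at a median of 2.57, and 35 higher and 5 lower than in dorsal skin, at a median of 2.00. Dok7, an adaptor of the neuromuscular junction, had means of 6.27 FPKM in the complex, 0.41 FPKM in ear skin and 0.14 FPKM in dorsal skin, and was the gene of the list higher in ear skin than in dorsal skin (0.30, adjusted p = 0.03127), where 29 were lower. The call of Dok7 was lost without any 1 of the ear skin and dorsal libraries (adjusted p = 0.06697 to 0.1157). Lower in the complex than in ear skin were Dmd (-0.30, adjusted p = 0.02121) and Pax3 (-0.82, adjusted p = 0.0006388). Lower than in dorsal skin were Ampd1 (-0.45, adjusted p = 0.01291), the AMP deaminase of muscle, Fbp2 (-0.56, adjusted p = 0.01091), Phkg1 (-1.28, adjusted p = 0.0003932), Dmd (-0.51, adjusted p = 0.002097) and Pax3 (-0.62, adjusted p = 0.002031). With dorsal refractory telogen as the dorsal group the calls of Ampd1 (-0.02, adjusted p = 0.8855) and Phkg1 (-0.22, adjusted p = 0.4619) were lost, and that of Dmd against ear skin was lost under median-of-ratios scaling (-0.22, adjusted p = 0.06423). The call of Ampd1 was also lost without either dorsal library (-0.44 and -0.46). That of Fbp2 was lost without dorsal replicate 1 (-0.44), and that of Dmd against ear skin without 1 of the ear skin libraries (-0.22).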

How the data were processed

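RNA of 48 samples of mouse skin and ear tissue had been made into libraries with SMART-seq2 and sequenced as paired-end reads. The authors quantified them with RSEM 1.2.25 on mm10 with the GENCODE vM8 annotation and deposited FPKM per gene in a table of 43 skin libraries and a table of 7 ear and dorsal libraries. They state a correction for batch effects without naming the batches, so its effect on these values cannot be told. FPKM hold no counts, and the values of the 2 dorsal libraries in the ear table were identical to those in the skin table.

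Groups came from the sample titles and descriptions. Values were taken as log2(FPKM + 1), a gene was tested where 2 or more libraries reached 0.5 FPKM, and limma 3.58.1 in R 4.3.3 (statmod 1.5.0) was fitted with a variance trend to the 43 skin libraries as 18 groups and, apart from that, to the 7 libraries of the ear table. Tests were two-sided, with Benjamini-Hochberg adjustment and a threshold of 0.05. No source says that replicates came from separate animals, so p-values measure the spread between libraries, which may be technical. Pairs of replicates all differed by more than counting noise, at 1.21 to 13.97 times the variance that counting gives, the highest in ventral refractory telogen. The 18 groups shared 1 estimate of the spread per gene, so a p-value does not rest on the spread of its own groups alone. Depth was estimated from the steps between low values, over genes that have only 1 transcript. The fit and the depth estimate were tested on simulated data. Sequences came from RefSeq on GRCm38.p6 and positions from GENCODE vM21. Figures were drawn with matplotlib 3.10.9, and tables were handled in pandas 2.3.3 under Python 3.11.15.

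The members, their roles, the fast and slow lists, the other muscle genes and the markers were chosen with earlier results of these data known. The rule for names allowed all 47 members. It gave values of every library to the highest members of each role, the fast and slow pairs and members called against most others, and it named from the other muscle list the 2 highest genes and those called against most, and the 10 other genes with the highest correlation, of which 1 is not reported here. Alternatives were a pseudocount of 0.1, no filter, TPM rescaling, scaling by the median of ratios, no variance trend, fits of a stage alone, a replicate block and each library left out. Chosen after seeing the data were fits without the chin late anagen and dorsal competent telogen libraries, their comparison with each other, and dorsal refractory telogen as the dorsal group for the ear.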

Additional observations from a re-analysis of the deposited data

Results flagged for a closer look

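The change of the members over the hair cycle stages differed among chin, ventral and dorsal skin for 47 of 47 members in the test of the domain by stage interaction, as it did for 73.3% of the genes tested. Chin skin was highest for most members at refractory telogen, and dorsal skin at competent telogen and early anagen. The competent telogen result rests on dorsal libraries that lay as close as replicates to chin late anagen. The groups hold 2 or 3 libraries, too few to look for single libraries that lie far from the rest of their group.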

How the results depend on the processing

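Of 1203 values of the 26 counts of members called under other settings, 1193 were within 1.5 times the count reported. Fits of a stage alone gave 15 members in place of 32 for chin against dorsal, 3 in place of 23 for chin against ventral and 8 in place of 22 for ventral against dorsal mid anagen, where fewer libraries set the spread. With each library left out in turn, the count ran from 9 to 25 for chin against ventral competent telogen, from 3 to 30 for chin against ventral early anagen, from 6 to 27 for chin against ventral and from 7 to 25 for ventral against dorsal mid anagen, and from 21 to 34 for ventral against dorsal late anagen. Of 136 differences of single genes, 99 kept their direction and call under every setting run. Of 5527 values, 164 lost the call and 3 changed sign: Mybpc2 (0.50) and Pvalb (0.054) in the ear complex against dorsal refractory telogen, and Sln (-0.16) in ventral against dorsal mid anagen without ventral replicate 2, which ran up to 3.21 without ventral replicate 1. TPM rescaling moved the share of higher calls by at most 5.95 percentage points and the median of ratios by at most 2.69. Libraries of different groups with equal replicate numbers had a median r of 0.003 over 327 pairs, and those with different numbers -0.0028 over 544 pairs. The authors' correction for unnamed batches could have removed such a link, so whether equal numbers mark pairs cannot be told. With a replicate block 15 of 24 counts were equal. None moved by more than 3 members, such as 24 in place of 27 for chin against dorsal catagen. Of 118 single differences, 4 lost their call with the block: Atp2a1 (adjusted p = 0.05592) in chin against dorsal catagen, Tnni1 (adjusted p = 0.05832) in chin against ventral catagen, Cacng1 (adjusted p = 0.06279) in ventral against dorsal mid anagen and Fbp2 (adjusted p = 0.06238) in ventral against dorsal early anagen. The lack of counts and levels under 1 FPKM limit what can be said of Myod1, Jph1, Myl2, Myl3 and Tnnc1 in most groups.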
